A study of Capra hircus with 2 samples.

Results

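The 8 genes described here are close neighbours on goat chromosome 1: ITSN1, CRYZL1, DONSON, SON, GART, DNAJC28, TMEM50B and PAXBP1. They were chosen by name and position. All 8 are among the 154 complete gene rows of the deposited table, and all 8 were matched to chromosome 1 in RefSeq's assembly ARS1.2. The first 7 follow each other without another gene between them, in the table and among the protein-coding genes of that assembly. PAXBP1 lies 5 rows after TMEM50B, beyond the receptor genes IFNGR2, IFNAR1 and IL10RB and a gene known only as ENSCHIG00000019897. Droplet-based single-cell RNA sequencing had been done on ovarian granulosa cells, the somatic cells around the oocyte, of Ji'ning grey goats. A first library, named HGC in the labels, held 7106 cells of goats of high fertility, with more than 3 kids per birth. The other, named LGC, held 3345 cells of goats of low fertility, with fewer than 2. The sources used here give no age, treatment or follicle stage, and no number of goats per library. The libraries share 27 cell barcodes, and with 1 library per group no difference between them could be tested against replicate error.

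Genes side by side on a chromosome can share a promoter region, an open chromatin domain or overlapping transcript ends, and neighbours in mammalian genomes are sometimes co-expressed. The human counterpart of this stretch is among the genes present in an extra copy in Down syndrome. SON encodes a protein of nuclear speckles that helps the splicing of weak introns. GART encodes an enzyme with several activities in the de novo synthesis of purines, and DONSON encodes a protein of the DNA replication fork. ITSN1 encodes intersectin, a scaffold of clathrin-mediated endocytosis, and TMEM50B a membrane protein of the endoplasmic reticulum and Golgi. PAXBP1 encodes an adaptor that binds the transcription factors PAX3 and PAX7. DNAJC28 belongs to the DnaJ family of co-chaperones, and CRYZL1 resembles quinone oxidoreductases.

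Transcripts were counted as unique molecular identifiers (UMIs) read from the 3' end, so that a count does not grow with transcript length. Levels are given as UMIs per 1000000 UMIs of the library (CPM), with exact 95% Poisson intervals that cover counting error only. HGC held 63769786 UMIs and LGC 45674506 UMIs. Their median cells held 7214.5 and 11080 UMIs, a 1.54-fold difference in depth that touches every share of cells with a UMI. Of the markers listed for granulosa, luteinising, theca, endothelial and red blood cells, none is among the 154 rows, so the labelled cell type was not checked here. The rows do hold 3 of 6 leukocyte markers (SAMSN1, CD96 and CD80), 2 of 5 stroma markers (CCDC80 and COL8A1) and 1 of 2 markers of surface epithelium (UPK1B).

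Levels of the neighbours spanned 863-fold in HGC and 512-fold in LGC, from DONSON to SON. SON stood at 162 CPM (159 to 166) in HGC and 179 CPM (175 to 183) in LGC, on 10360 and 8192 UMIs. It was the sixth and the fifth most abundant of the 154 rows, and took 66.7% and 72.5% of all UMIs of the 8 genes. DONSON, the next gene on one side, stood at 0.188 CPM (0.0972 to 0.329) on 12 UMIs and 0.350 CPM (0.200 to 0.569) on 16 UMIs. GART, the next gene on the other side, stood at 0.549 CPM (0.382 to 0.763) and 0.766 CPM (0.534 to 1.07), on 35 UMIs in each library. In counted UMIs SON was thus 296 and 234 times as high as GART. Both neighbours lay above the level that a count of 0 would allow, 0.0470 CPM in HGC and 0.0657 CPM in LGC (3 UMIs). In ARS1.2 the RefSeq models of DONSON and SON overlap. How the authors' counting treated reads in such an overlap is not given in the sources used here, so the split between these genes is uncertain. The annotation is not given either, so how fully the 3' end of each gene was counted was not tested. Levels compared between genes, among them SON and GART, carry that uncertainty.

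The other 5 genes lay between these extremes. CRYZL1 stood at 44.2 CPM (42.6 to 45.9) in HGC and 34.3 CPM (32.6 to 36.0) in LGC. ITSN1 followed at 18.4 CPM (17.3 to 19.5) and 14.5 CPM (13.4 to 15.7), and TMEM50B at 10.9 CPM (10.1 to 11.7) and 9.94 CPM (9.05 to 10.9). DNAJC28 had 3.72 CPM (3.26 to 4.22) and 4.38 CPM (3.79 to 5.03), and PAXBP1 3.14 CPM (2.72 to 3.60) and 3.70 CPM (3.16 to 4.30). The order was the same in the libraries: SON, CRYZL1, ITSN1, TMEM50B, DNAJC28, PAXBP1, GART, DONSON. Of the 7 steps in it, only that from DNAJC28 to PAXBP1 was within counting error, with a UMI ratio of 1.19 (0.978 to 1.44) in HGC and 1.18 (0.959 to 1.46) in LGC. Above the median of all 154 rows, 2.15 and 2.21 CPM, stood 6 of the 8 genes. DONSON and GART stood below it.

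**Figure D1:**
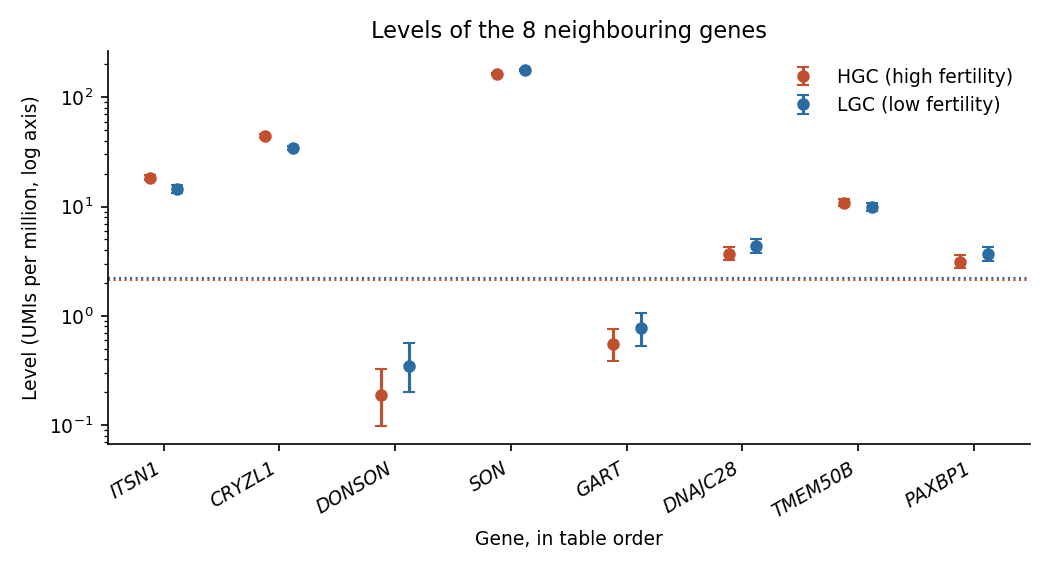
Level of each gene in CPM on a log axis, in table order, with exact 95% Poisson intervals. Points stand for the 2 libraries and dotted lines for the medians of all 154 rows, which nearly coincide. SON stands above 160 CPM in both libraries between DONSON and GART, which both stand below 1 CPM.

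Steps between adjacent genes along the chromosome were uneven. ITSN1 and CRYZL1 differed 2.41-fold in HGC and 2.36-fold in LGC, and DNAJC28 and TMEM50B 2.93-fold and 2.27-fold. CRYZL1 and DONSON differed 235-fold and 97.9-fold, and GART and DNAJC28 6.77-fold and 5.71-fold. Rows with at least 100 UMIs each formed 67 pairs adjacent in the table, with a median fold of 5.21 in HGC and 5.41 in LGC. The 4983 pairs that were not adjacent had 4.78 and 4.67. Steps with DONSON or GART are not in this comparison. The 2 member steps that are, ITSN1 to CRYZL1 and DNAJC28 to TMEM50B, had medians of 2.67 and 2.32. Over all such rows, the median fold between adjacent pairs was thus no smaller than that between rows farther apart. Apart from the members, rows were not matched to the assembly, so rows adjacent in the table need not be neighbours on the chromosome.

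Seen cell by cell, SON was a gene of most cells and the others of few. A UMI of SON was found in 67.2% (66.1% to 68.3%, exact binomial interval) of the cells in HGC and 78.6% (77.1% to 79.9%) in LGC, with up to 23 and 27 UMIs in a cell. CRYZL1 was seen in 30.5% and 34.1% of the cells, ITSN1 in 14.4% and 16.4%, and TMEM50B in 7.75% and 10.8%. DNAJC28 was seen in 3.22% and 5.62%, PAXBP1 in 2.73% and 4.75%, GART in 0.493% and 1.02%, and DONSON in 0.169% and 0.478%. With 2000 UMIs drawn from every cell, which left out 209 shallower cells of HGC and 132 of LGC, the shares were 28.9% and 31.0% for SON, 8.81% and 7.04% for CRYZL1 and 4.03% and 3.28% for ITSN1. CRYZL1 and ITSN1 were thus seen in a larger share of the cells of LGC as deposited, and in a smaller share with 2000 UMIs drawn. Such a draw does not match cells of like depth, and the level of ITSN1 was lower in deeper cells, as given below. No cell class that should lack these genes could be named, so no background share for free RNA was measured.

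Most positive cells held a single UMI. This was so for 12 of 12 and 16 of 16 cells with DONSON, and for 35 of 35 and 33 of 34 cells with GART. The share was 96.5% and 93.6% for DNAJC28, 96.9% and 93.7% for PAXBP1, 87.8% and 83.2% for ITSN1, 82.6% and 81.9% for TMEM50B and 76.6% and 72.5% for CRYZL1. SON was the exception, with 44.1% and 28.5%, and a mean of 2.17 and 3.12 UMIs per positive cell.

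The spread of UMIs over cells, divided by the spread that Poisson counting at each cell's depth would give, set TMEM50B apart among the rarer members. It was 1.46 in HGC and 1.36 in LGC for TMEM50B, where 4 of 14 and 7 of 19 other rows of like level (within 1.5 times its CPM) had a higher value. CRYZL1, although more abundant, had 1.05 and 1.09, lower than all 7 and all 6 rows of like level. DNAJC28 had 1.02 and 1.04, PAXBP1 1.02 and 1.04, GART 0.992 and 1.04 and DONSON 0.995 and 0.991. ITSN1 had 1.10 in HGC and 1.23 in LGC, and SON 1.44 and 1.92. SON had only 4 and 1 rows of like level, of which 2 and 0 had a higher value.

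Between the libraries, CRYZL1 and ITSN1 were higher in HGC and SON lower, none by 1.5-fold. Of the 6 members with at least 100 UMIs over both libraries, 0 were 1.5-fold or more higher and 0 as much lower in HGC, beside 11.9% and 5.94% of the 101 rows with as many UMIs, 17.8% in either direction. With 6 members, such counts do not set them apart from the other rows. The interval of the ratio, HGC over LGC, lay above 1 for 2 of the 6 (45.5% of the 101 rows), below 1 for 1 of the 6 (20.8% of the rows) and held 1 for 3. Their median ratio was 1.00, beside 1.12 over the 101 rows. CRYZL1 was higher in HGC, with a ratio of 1.29 (1.21 to 1.37), in 8 of 8 ranges of depth per cell. The size was uneven, from 1.01 in cells of 5000 to 7500 UMIs to 1.76 in cells of 2500 to 5000 UMIs. Standardised over the depth ranges, the ratio was 1.19. ITSN1 had a ratio of 1.27 (1.15 to 1.39), but was higher in only 5 of 8 depth ranges. It had 1.10 without cells above 15000 UMIs, and 1.10 when standardised over the depth ranges. SON was lower in HGC, at 0.906 (0.880 to 0.933), in 8 of 8 depth ranges. The 18 rows at 50 CPM or more in each library had a median ratio of 1.12, a shift of 0.16 in log2 terms. Divided by it, these ratios were 1.15 for CRYZL1, 1.13 for ITSN1 and 0.809 for SON, in the same directions.

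The ratios of the other members were not separated from 1 by counting error. TMEM50B had a ratio of 1.09 (0.971 to 1.24), DNAJC28 of 0.849 (0.700 to 1.03) and PAXBP1 of 0.848 (0.687 to 1.05). GART had 0.716 (0.435 to 1.18) and DONSON 0.537 (0.232 to 1.21); with so few UMIs, differences of such a size were not detectable at this depth. Relative to the shift of abundant rows TMEM50B stood at 0.978, so its direction is not settled. SON and CRYZL1, 2 rows apart, thus lay on opposite sides of 1. On the deposited scale, the natural log of 1 plus UMIs per 10000, the mean of SON was 0.812 ± 0.682 (SD over 7106 cells) in HGC and 0.916 ± 0.652 (SD over 3345 cells) in LGC. That of CRYZL1 was 0.263 ± 0.442 and 0.230 ± 0.370. These SDs are over cells and hold no replicate error.

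**Figure D2:**
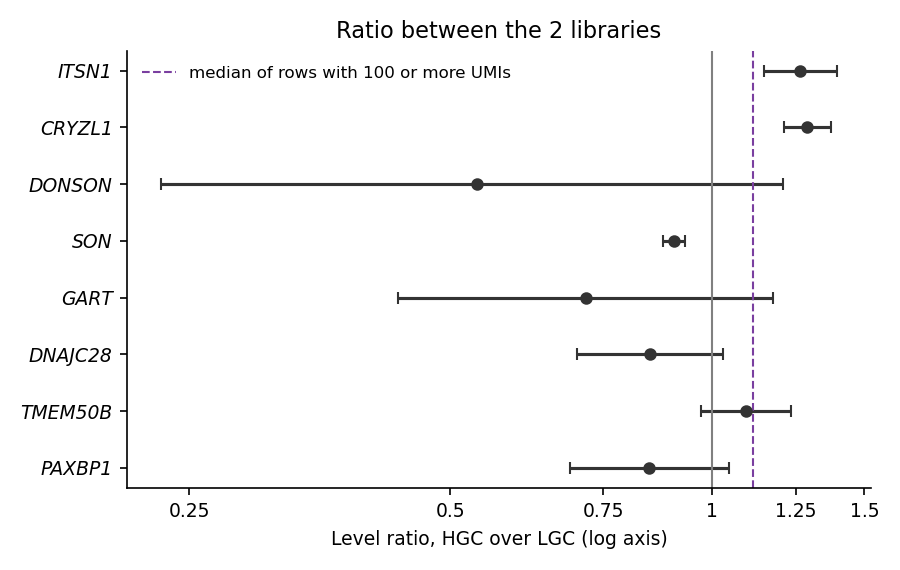
Ratio of the level in HGC to that in LGC on a log axis, with exact 95% intervals for counting error. The solid line marks 1 and the dashed line the median of the 101 rows with at least 100 UMIs; the intervals of CRYZL1 and ITSN1 lie above 1, that of SON below 1, and the rest hold 1.

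The level of SON depended on the depth of the cell. It was 366 CPM in cells below 2500 UMIs and 118 CPM in cells of 30000 UMIs or more in HGC, and 413 and 149 CPM in LGC. In cells below 5000 UMIs SON was 1.71 times (1.61 to 1.83) as high as in cells above 15000 UMIs in HGC, and 1.77 times (1.60 to 1.95) in LGC. Of the 101 rows, 21 and 20 had a larger ratio, and the median row had 1.26 and 1.14. ITSN1 had a ratio of 1.97 (1.62 to 2.39) and 1.79 (1.22 to 2.56). Of the 6 members with at least 100 UMIs, SON, ITSN1 and PAXBP1 were past 1.5-fold in both libraries, as were 17.8% of the 101 rows, but the interval of PAXBP1 held 1 in LGC (1.60, 0.708 to 3.18). TMEM50B went the other way in HGC, at 6.92 CPM in shallow and 12 CPM in deep cells, a ratio of 0.576 (0.407 to 0.796). In LGC its ratio was 0.854 (0.471 to 1.43). CRYZL1 had 1.30 (1.14 to 1.49) and 0.956 (0.701 to 1.28), and DNAJC28 1.28 (0.786 to 2.03) and 1.22 (0.512 to 2.49).

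**Figure D3:**
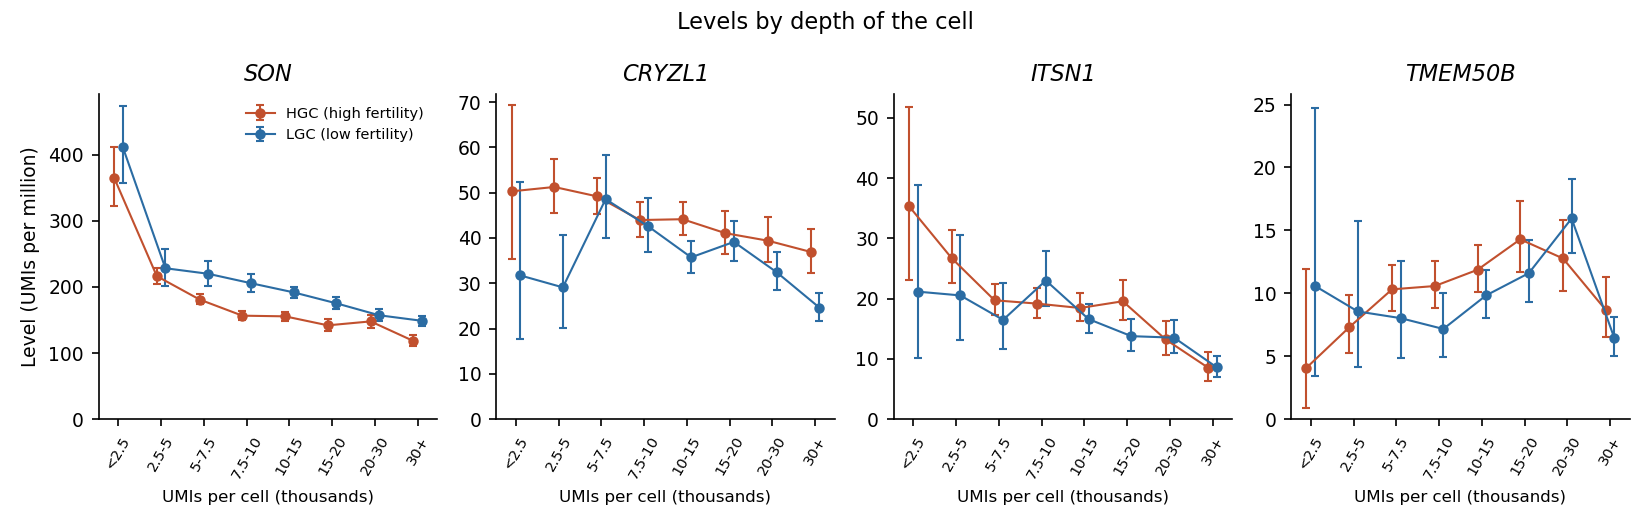
Levels of SON, CRYZL1, ITSN1 and TMEM50B in CPM, each on its own linear axis from 0, in 8 ranges of UMIs per cell with exact 95% Poisson intervals. SON falls from over 360 CPM in the shallowest to under 150 CPM in the deepest cells in both libraries, while TMEM50B is highest in cells of 15000 to 30000 UMIs.

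Whether neighbours were seen in the same cells was asked in each library on its own. For each pair the number of cells with a UMI of both genes was divided by the number expected if the genes were detected independently at each cell's depth. A ratio of 1 means that detection did not co-vary beyond depth. Co-variation in the number of UMIs per cell, which matters most for SON, is not seen by this ratio. Of the 28 pairs, 16 in HGC and 18 in LGC had the 10 expected cells set as a minimum. Their median ratio was 1.01 in each library, with a range from 0.774 to 1.57 in HGC and from 0.743 to 1.22 in LGC. The exact Poisson interval held 1 for 16 of 16 and 18 of 18 pairs. This interval is too wide for abundant genes. For some pairs with SON it could not have lain above 1, even with every cell of the rarer gene holding SON. These were SON and GART in each library, and SON with DONSON, DNAJC28 or PAXBP1 in LGC. Over all pairs of rows with 10 expected cells, 6.1% lay above and 4.11% below 1 in HGC, and 4.01% and 2.8% in LGC. With so few member pairs, some of them unable to lie above 1, counts of 0 in each direction do not set the neighbours apart from that background.

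Each pair was then placed among all pairs of other rows with levels within 1.5 times those of its genes, which share the same cells and libraries. These come from the 146 other complete rows alone, so they are no sample of the genome. Only the members were matched to a chromosome here, and the other rows may lie on the same one. Pairs of other rows that are near each other in the table were kept. The median percentile was 39.3 over 16 pairs in HGC and 58.6 over 17 pairs in LGC, and 4 of 16 and 9 of 17 pairs stood above the median of their like-level pairs. In HGC the median pair of neighbours stood below the middle of its like-level pairs, but at 49.6 without cells holding SAMSN1 or CCDC80. The pairs share genes and cells, so they are not independent. In LGC the median percentile moved to 36.1 without cells above 15000 UMIs and to 68.2 without cells holding SAMSN1 or CCDC80, so no side of 50 can be given for it. As Pearson correlations of the deposited log values over cells, the pairs ranged from -0.015 to 0.024 over 7106 cells and from -0.033 to 0.041 over 3345 cells, too weak in such sparse counts to be read. Correlations of UMIs scaled by those expected at each cell's depth ranged from -0.015 to 0.026 in HGC and from -0.024 to 0.054 in LGC. They were highest for SON with ITSN1 in HGC and SON with CRYZL1 in LGC, and were not placed among like-level pairs. With products of UMIs in place of detection, the median ratio was 0.992 in HGC and 1.00 in LGC.

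SON and GART, which adjoin, were seen together in 22 cells of HGC where 25.7 were expected, a ratio of 0.856 (0.536 to 1.30). In LGC they were seen together in 30 cells where 29.4 were expected, a ratio of 1.02 (0.690 to 1.46). DONSON and SON, whose models overlap, had 11 cells against 8.98 expected and 15 against 13.9. ITSN1 and CRYZL1, the adjacent pair with the most cells, were seen together in 385 cells against 370 expected (1.04, 0.939 to 1.15) and in 219 against 222 (0.985, 0.859 to 1.12). DNAJC28 and TMEM50B had 28 against 25.7 (1.09, 0.725 to 1.58) and 30 against 28.2 (1.07, 0.719 to 1.52). GART and DNAJC28, the last adjacent pair, had 1 and 2 cells against 1.58 and 2.41, and CRYZL1 and DONSON 3 and 6 against 4.78 and 7.10. For SON with GART and with DONSON, the Poisson interval would have held 1 even with complete overlap. It is too wide for a gene as abundant as SON, so it cannot decide whether these pairs co-vary. A narrower interval was not computed. CRYZL1 with DONSON, and GART with DNAJC28, were under the minimum of 10 expected cells. The remaining adjacent pairs, ITSN1 with CRYZL1 and DNAJC28 with TMEM50B, could not be told from independent detection.

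Among pairs with at least 10 expected cells, the one farthest above 1 was CRYZL1 and GART in HGC, with 21 cells against 13.3 expected, a ratio of 1.57 (0.974 to 2.41) and above 98.9% of 94 like-level pairs. In LGC the same pair had 14 against 14.6, a ratio of 0.958 (0.524 to 1.61). SON and CRYZL1, with most cells, were the most precise: 1608 against 1580 (1.02, 0.969 to 1.07) and 983 against 974 (1.01, 0.948 to 1.07). Since SON was seen in most cells, a pair with it cannot reach a high ratio. With CRYZL1 the ratio could be at most 1.37 and 1.17, and with GART at most 1.36 and 1.16. In HGC, 581 cells held 3 of the 8 genes (exact Poisson interval 535 to 630.2) where 533 were expected, so that the interval lay above the expected number. In LGC the interval held it, with 393 such cells (355 to 434) where 400 were expected. For cells with 4 of the genes the intervals held the expected numbers in each library, with 83 cells against 83.6 and 87 against 84.0. So did the intervals for every other number of genes per cell, in each library. In HGC 1869 cells held 2 of the genes where 1925 were expected. The variance of the number of genes seen per cell was 1.03 and 1.02 times that expected, so the excess at 3 genes in HGC is an isolated value.

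**Figure D4:**
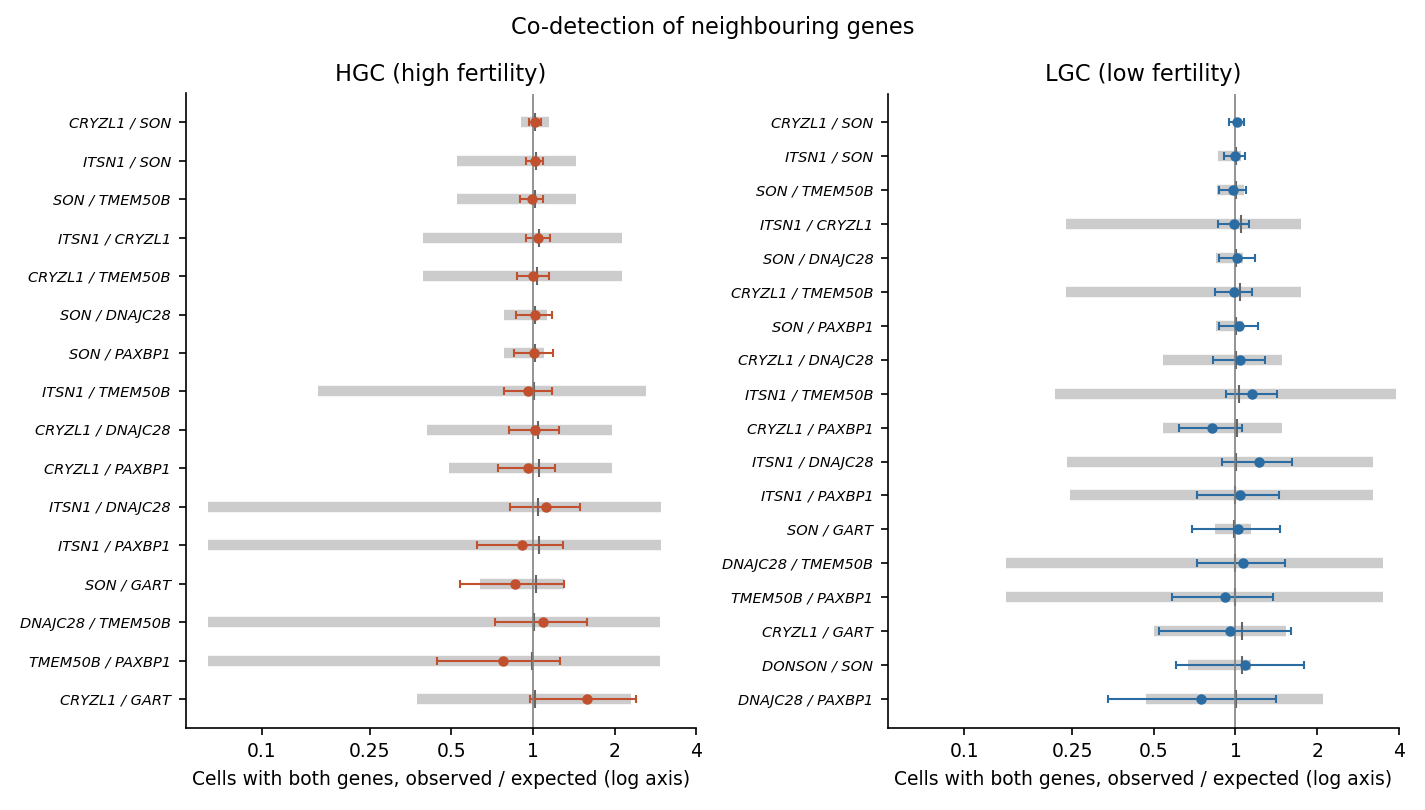
Cells with a UMI of both genes divided by the number expected at each cell's depth, on a log axis, for the 16 and 18 pairs with at least 10 expected cells, ordered by that number. Bars are exact 95% Poisson intervals; grey bands run from the lowest to the highest ratio of like-level pairs of other rows, with a tick at their median (the LGC pair CRYZL1 and SON has no band). All intervals hold 1. For SON with GART, and in LGC for SON with DONSON, DNAJC28 or PAXBP1, even complete overlap would leave the interval holding 1.

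TMEM50B had the highest ratios with other rows, and the next were those of ITSN1. The ratio of TMEM50B was highest with ENSCHIG00000015902, a gene without a symbol far from it in the table, and with SAMSN1, an adaptor gene of blood cells. TMEM50B and ENSCHIG00000015902 were seen together in 69 cells against 26.7 expected in HGC (2.58, 2.01 to 3.27) and 95 against 38.8 in LGC (2.45, 1.98 to 2.99). With SAMSN1 there were 116 cells against 46.1 (2.52, 2.08 to 3.02) and 107 against 45.0 (2.38, 1.95 to 2.87). Its lowest ratio among 62 rows was with CCDC191, at 0.704 (0.464 to 1.02) and 0.606 (0.359 to 0.958). ITSN1 had its highest ratios with the same genes, at 1.30 (0.994 to 1.67) and 1.56 (1.24 to 1.95) for ENSCHIG00000015902 and at 1.26 (1.04 to 1.52) and 1.32 (1.05 to 1.63) for SAMSN1. These genes were picked as the highest of many, so their ratios describe the cells and are no test.

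For the other members the highest ratios were smaller, and their intervals held 1 in each library. They were ROBO2 (1.15 and 1.18) and ABHD10 (1.21 and 1.13) for CRYZL1, and ENSCHIG00000025408 (1.12 and 1.14) and LTN1 (1.11 and 1.09) for SON. DNAJC28 had IFNGR2 (1.09 and 1.11) and C3orf38 (1.08 and 1.26), and PAXBP1 had DCBLD2 (1.14 and 1.20) and BTG3 (1.11 and 1.11). The lowest were ROBO2 for ITSN1 (0.846 and 0.833), ZNF654 for CRYZL1 (0.774 and 0.815), URB1 for SON (0.831 and 0.909) and ENSCHIG00000008043 for PAXBP1 (0.799 and 0.918). For DNAJC28 it was DZIP3, at 0.545 (0.328 to 0.851) in HGC and 0.850 (0.578 to 1.21) in LGC.

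Next to TMEM50B on the side away from the other 6 adjoining members lies IFNGR2, which encodes a subunit of the receptor for interferon gamma, at 44.6 CPM in HGC and 53.8 CPM in LGC. Among the 38 and 40 pairs of a member with one of 8 nearby rows, TMEM50B and IFNGR2 alone had an interval above 1, and it had one in each library. That is 1 of 38 pairs in HGC and 1 of 40 in LGC, beside 6.1% and 4.01% of all pairs of rows, so the count is no more than the background. One of the nearby rows, ENSCHIG00000010079, was seen in 91.9% of the cells in HGC and 92.8% in LGC. Most pairs with it, and some with SON, would hold 1 even with complete overlap. The counts thus cannot show that TMEM50B and IFNGR2 stand alone. TMEM50B and IFNGR2 were seen together in 266 cells against 193 expected (1.37, 1.21 to 1.55) and in 223 against 173 (1.29, 1.13 to 1.47), above 95.2% and 97.7% of like-level pairs. Without cells holding a UMI of SAMSN1 or ENSCHIG00000015902 the ratio was 1.29 (1.11 to 1.51) in HGC and 1.17 (0.956 to 1.41) in LGC, where the interval then held 1. With CFAP298, beyond PAXBP1, TMEM50B was seen less often than expected, at 0.803 (0.705 to 0.910) and 0.823 (0.706 to 0.953). Without those cells the ratios were 0.884 (0.766 to 1.01) and 0.915 (0.763 to 1.09). The other interval below 1 was that of CRYZL1 with IFNGR2 in HGC, at 0.913 (0.843 to 0.988), beside 0.957 (0.874 to 1.05) in LGC. IFNAR1 and IL10RB, receptor genes of type I interferon and of IL10, stood at 1.72 and 1.75 CPM and at 1.05 and 1.53 CPM, and the ratios with them that had 10 expected cells, those of ITSN1, CRYZL1, SON and TMEM50B, were not separated from 1. For TMEM50B with IL10RB this was so in LGC alone.

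The cells with a UMI of SAMSN1, 583 in HGC and 366 in LGC, were then compared with the cells without it at matched depth. TMEM50B stood at 33.2 CPM in them and 8.95 CPM in the others in HGC, and at 31.5 and 7.24 CPM in LGC. At matched depth this was 3.69 times (3.16 to 4.29) and 3.98 times (3.39 to 4.65) the expected UMIs. These cells were 8.20% and 10.9% of all cells and held 24.4% and 35.2% of all TMEM50B UMIs. Of 100 rows, 9% were 2-fold or more higher in them in both libraries, and TMEM50B had the fifth and the seventh highest ratio. Taking only cells with 2 or more UMIs of SAMSN1, the ratios were 4.0 (3.16 to 5.0) and 4.51 (3.62 to 5.54). These ratios of TMEM50B, and those of ITSN1 below, rest on the same cells and UMIs as their co-detection with SAMSN1, which was picked as among the highest. They restate it and are no further test. Doublets and free RNA were not removed, and their part in these ratios was not tested.

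Other members moved less in these cells, and not in one direction. DNAJC28 had ratios of 1.65 (1.11 to 2.35) on 30 UMIs and 2.0 (1.44 to 2.72) on 41 UMIs, and ITSN1 of 1.37 (1.14 to 1.63) and 1.62 (1.33 to 1.94). SON was slightly lower, at 0.875 (0.813 to 0.941) and 0.902 (0.842 to 0.965). CRYZL1 had 0.962 (0.838 to 1.10) and 1.10 (0.952 to 1.27) and PAXBP1 0.926 (0.518 to 1.53) and 1.29 (0.815 to 1.93), neither separated from 1. GART had 4 UMIs in these cells in each library and DONSON 1 and 3. The median of the 100 rows was 0.770 and 0.927.

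In cells with a UMI of CCDC80, a secreted matrix-associated protein, TMEM50B again had the highest ratio of the members. It was 2.18 times (1.90 to 2.49) as high in the 832 such cells of HGC and 1.58 times (1.29 to 1.92) in the 359 of LGC, past 1.5-fold in both as were 11% of the 100 rows. ITSN1 had 1.12 (0.969 to 1.29) and 1.27 (1.05 to 1.54). SON had 0.975 (0.929 to 1.02) and 1.01 (0.954 to 1.07), and CRYZL1 0.980 (0.893 to 1.07) and 0.942 (0.821 to 1.07). UMIs of both SAMSN1 and CCDC80 were held by 107 cells of HGC and 51 of LGC, and the numbers expected at their depth were not worked out. The ratio of TMEM50B in cells with CCDC80 was not recomputed without cells holding SAMSN1. Without cells holding CCDC80, the ratio of TMEM50B in cells with SAMSN1 was 3.99 (3.29 to 4.79) in HGC and 3.66 (3.01 to 4.41) in LGC.

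A gene without a symbol, ENSCHIG00000012599, splits the cells into a low and a high mode at a deposited value of about 2.5. The high mode held 45.5% of HGC and 67.1% of LGC cells, and 5.61% and 5.71% of the cells lay near the bound, from 2 to 3. TMEM50B was 2.72 times (2.5 to 2.97) as high in the high mode in HGC, and 0.933 times (0.834 to 1.04) in LGC. Cells with SAMSN1 lay in the high mode in 86.4% and 71.3%. Among cells without SAMSN1, TMEM50B stood at 12.4 CPM (11.2 to 13.7) in the high mode and 5.47 CPM (4.66 to 6.39) in the low mode of HGC, against 7.16 CPM (6.23 to 8.19) and 7.47 CPM (5.93 to 9.28) in these modes of LGC. Among cells with SAMSN1 it stood at 37.1 CPM (31.6 to 43.2) in the high mode and 8.62 CPM (3.16 to 18.8, on 6 UMIs) in the low mode of HGC, and at 31.7 CPM (26.1 to 38.1) and 31.0 CPM (22.9 to 41.1) in LGC. The level of TMEM50B in cells with SAMSN1 thus differed between the modes in HGC beyond counting error, and did not in LGC. SON hardly differed between the modes, at 0.992 (0.965 to 1.02) and 1.05 (1.03 to 1.08), and CRYZL1 had 1.06 (1.01 to 1.12) and 0.955 (0.90 to 1.01).

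**Figure D5:**
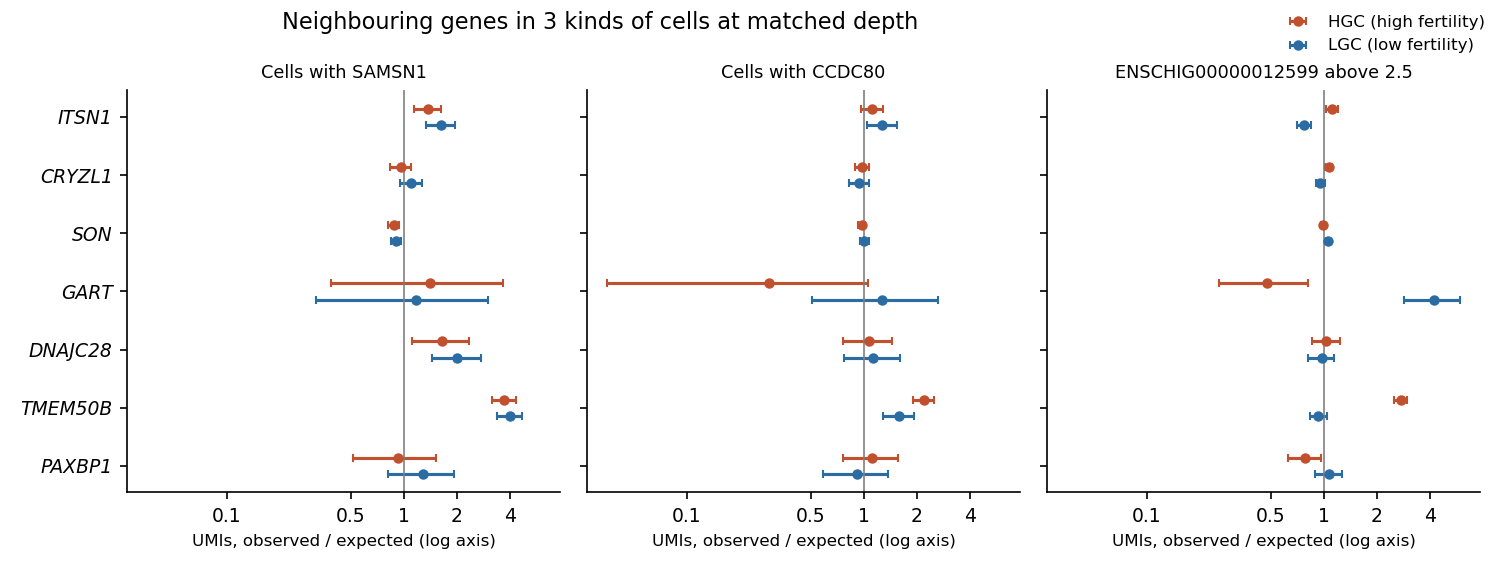
UMIs of 7 members (DONSON has too few) in cells with SAMSN1, with CCDC80 or above 2.5 in ENSCHIG00000012599, divided by the UMIs expected from the other cells of the same depth, on a log axis with exact 95% Poisson intervals. TMEM50B lies well above 1 in cells with SAMSN1 in both libraries, at 3.69 and 3.98, while SON and CRYZL1 lie near 1 in each panel.

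The lists set down for the members' pathways were almost empty here. GART was the 1 of 6 genes of de novo purine synthesis among the rows, and DONSON the 1 of 11 replication genes. SON and SCAF4 were the 2 of 9 genes of splicing and nuclear speckles, and ITSN1 and SYNJ1, which encodes the phosphatase synaptojanin, the 2 of 7 of endocytosis. SYNJ1 stood at 0.596 CPM in HGC and 1.12 CPM in LGC, a ratio of 0.534 (0.341 to 0.828), the opposite direction to ITSN1. SCAF4, a protein that binds the tail of RNA polymerase II, stood at 0.910 and 0.854 CPM, a ratio of 1.07 (0.698 to 1.64). Of 24 further genes listed as chromosome neighbours, 9 were among the rows. Other genes of these pathways were not analysed here.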

How the data were processed

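Per the labels' protocols, enzymatically dissociated granulosa cells went into 10x 3' V2 libraries. Cell Ranger 2.2.0 is named in the submitters' processing notes; genome build, annotation, strand setting and cell filter: not given in the sources used here. The authors deposited values on a natural log scale, ln(1 + UMIs per 10000 UMIs of the cell). UMIs were worked back from them, and all 177610 values above 0 came out whole within 0.0001. The table ends within a row, so 154 complete rows were used and 1 incomplete row was left out. All 10451 cells were kept, no clusters were made, and no doublet caller was run, since only these rows were analysed.

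CPM are summed UMIs over summed totals. CPM ratios carry exact binomial intervals. For co-detection, the detection probability 1-(1-q)^total was solved per gene in 20 depth bins of equal size, and pairs under 10 expected cells or 10 like-level pairs were left out; expected numbers were taken as fixed, and for abundant genes the Poisson intervals are too wide. Cells with SAMSN1, CCDC80 or the high mode were compared with the rest over the same bins. Functions were tested on simulated data. Members, lists and the bound of 2.5 were chosen with earlier results of these data known. Named were the 8 members, nearby rows, fixed lists and, for each member with 100 UMIs per library, the 2 rows of highest and the 1 of lowest co-detection in both libraries (20 expected cells). Comparisons by depth, in cells with a marker and with nearby rows, and their alternatives, were added after the data were seen. Python 3.11.15, numpy 2.4.6 and scipy 1.17.1 were used.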

Additional observations from a re-analysis of the deposited data

Results flagged for a closer look

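GART and ITSN1 lay on opposite sides of 1 in the libraries when cells above 2.5 in ENSCHIG00000012599 were compared with the other cells at matched depth. They were picked by scanning all members over these cells and over cells with SAMSN1 or CCDC80. How many other rows meet the same rule was not counted, so it does not set the members apart. GART was at 0.479 (0.255 to 0.818), 13 UMIs against 27.2 expected, in HGC and at 4.18 (2.86 to 5.90), 32 against 7.66, in LGC. In CPM it stood at 0.384 above and 0.735 below the bound in the former, and at 0.962 and 0.242 in the latter, so that 32 of its 35 UMIs in LGC were in the high mode. ITSN1 was at 1.11 (1.02 to 1.2) in HGC and at 0.774 (0.704 to 0.850) in LGC. The difference between the libraries was not tested, with 1 library each. Expected UMIs were taken as fixed, which leaves the intervals of GART in particular too narrow.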

How the results depend on the processing

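Counts of 0 members past 1.5-fold stayed at 0 with means over cells, the median of ratios, depth standardisation, without cells above 15000 or below 2500 UMIs and at 2-fold; at the lowest fold tried it was 2 (ITSN1 and CRYZL1). Of 40 recomputed member ratios, 31 stayed within the counting interval, 9 left it and 0 turned a direction whose interval excluded 1. With 1 depth bin per library the median co-detection ratio was 0.943 in HGC and 0.938 in LGC. The median percentile among like-level pairs was 49.6 in HGC without cells holding SAMSN1 or CCDC80. In LGC it was 47.5 with levels within 2 times, 41.2 with 1 depth bin, 36.1 without cells above 15000 UMIs and 30.8 by correlation of log values, so its side of 50 depends on the setting; the cause was not tested. Over the settings it ranged from 32.8 to 49.6 in HGC and from 30.8 to 68.2 in LGC. TMEM50B in cells with SAMSN1 was at 3.00 (1.44 to 5.52) and 5.04 (1.37 to 12.9) in cells below 5000 UMIs alone. Depth limits DONSON and GART most. No paired analysis was possible because there is 1 library on each side.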
